A study of Homo sapiens with 6 samples.

Results

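The genes described here are TTN, which encodes the giant muscle protein titin, and 9 genes of the short arm of chromosome 17: the myosin heavy chain genes MYH1, MYH2, MYH3, MYH4, MYH8 and MYH13 and their neighbours GAS7, USP43 and SCO1. They are 10 of the 58884 genes in the count table, each matched by its symbol. They were picked because their counts were seen to be higher with the guide against ITPR3, so the difference between groups is given as a description, without a test. All 10 entered the fit across genes, but MYH1, MYH2, MYH4 and MYH8 had fewer than 10 counts in at least 1 control library and reached the low-count filter through the other group, so their entry already implies a difference.

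The libraries came from SW480, an established human colorectal cancer line. Its cells were placed in the portal circulation of NSG mice, which are immunodeficient, and grew as liver metastases, from which tumour cells were isolated by digestion, a density gradient and depletion of mouse cells. There were 3 libraries of cells with a guide RNA against ITPR3 (sgITPR3) and 3 of cells with a control guide (sgCtrl), and polyadenylated RNA was counted as tags near transcript ends. Loss of the protein was checked by Western blot, per the labels. The sources used here do not say whether the cells were single clones or whether each library came from its own mouse, so error terms measure only the spread between these libraries.

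Totals were 19140055 to 23943797 counts in sgITPR3 libraries and 19255242 to 20049117 in sgCtrl libraries. Levels are in CPM, each count divided by the TMM-scaled total of its library, and 1 count was worth 0.0405 to 0.0538 CPM. ITPR3 itself averaged 42.2 ± 3.58 CPM in sgITPR3 and 98.5 ± 7.77 CPM in sgCtrl (SD, n = 3 each; edgeR adjusted p = 1.28e-07). A tag near the transcript end need not cover the edited part of the gene. The epithelial genes EPCAM and KRT18 were abundant in both groups, at 307 ± 37.4 and 1089 ± 39.2 CPM in sgITPR3 and at 382 ± 39.3 and 1255 ± 100.2 CPM in sgCtrl, with EPCAM lower in sgITPR3 (edgeR adjusted p = 0.0249).

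Titin runs from the edge to the middle of the sarcomere of striated muscle as a molecular spring, and the sarcomeric myosins are the motors that pull on actin there. The skeletal myosin heavy chain genes lie side by side in one orientation, and each is used in particular fibre types or stages: MYH3 in embryonic muscle, MYH8 in perinatal muscle, MYH2, MYH1 and MYH4 in adult fast fibres, and MYH13 in extraocular muscle. None of these genes is a usual marker of colon epithelium. GAS7 encodes an actin-associated protein first described in growth-arrested cells, USP43 a ubiquitin-specific protease, and SCO1 a mitochondrial copper chaperone needed to assemble cytochrome c oxidase.

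The myosin genes are close copies of each other, which bears on how reads can be assigned. The last 60 coding bases before the stop codon are shown for the 3 adult fast-fibre genes, from GENCODE 29 transcripts and 5′ to 3′ on the gene's strand, with capitals where MYH2 or MYH4 differs from MYH1.
MYH1: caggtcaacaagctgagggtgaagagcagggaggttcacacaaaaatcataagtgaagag
MYH2: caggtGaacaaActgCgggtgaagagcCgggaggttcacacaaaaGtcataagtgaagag
MYH4: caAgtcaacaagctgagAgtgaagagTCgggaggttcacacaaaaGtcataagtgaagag
MYH2 and MYH4 each match MYH1 at 55 of these 60 bases. Over the last 500 coding bases, the 15 pairs of myosin genes were 73.6% to 91.2% identical, with MYH1 and MYH4 closest. Runs of 50 bases from this stretch that also occur in a transcript of another gene made up 3.10% of the runs in MYH3, 6.21% in MYH13, 6.65% in MYH1, 11.8% in MYH4, 12.6% in MYH8 and 16.6% in MYH2. Over the last 500 bases of the whole transcript, where most tags of this library type should fall, shared runs were 0% in MYH3, MYH13, TTN, GAS7, USP43 and SCO1. They were 0.887% in MYH1, 1.55% in MYH2 and in MYH4, and 2.44% in MYH8. The sources used here do not say how reads with several alignments, or reads from mouse cells, were treated, so the split of counts between the myosin genes is uncertain.

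The 100 bases before the annotated start (RefSeq, GRCh38.p14) are shown for the myosin genes that the RefSeq table holds, because these genes differed together between groups. Capitals mark TATAAA, searched on both strands.
MYH1, chr17:10518543-10518642, minus strand: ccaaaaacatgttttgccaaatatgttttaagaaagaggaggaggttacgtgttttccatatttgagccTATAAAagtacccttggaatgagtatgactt
MYH2, chr17:10549659-10549758, minus strand: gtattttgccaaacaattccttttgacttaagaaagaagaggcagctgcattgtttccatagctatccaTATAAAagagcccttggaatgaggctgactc
MYH4, chr17:10469560-10469659, minus strand: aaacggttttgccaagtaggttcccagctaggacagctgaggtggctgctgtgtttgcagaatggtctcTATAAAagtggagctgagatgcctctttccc
MYH8, chr17:10421951-10422050, minus strand: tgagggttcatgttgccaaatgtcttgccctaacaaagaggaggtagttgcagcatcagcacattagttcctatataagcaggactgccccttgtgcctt
MYH13, chr17:10373007-10373106, minus strand: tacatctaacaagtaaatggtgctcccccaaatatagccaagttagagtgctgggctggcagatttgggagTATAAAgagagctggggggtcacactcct
TATAAA begins 31 bases before the start in MYH1, MYH2 and MYH4 and 29 bases before it in MYH13. Of the 7 listed genes in the table, which also holds TTN and SCO1, 4 have it in this stretch, as do 4.99% of the 35116 human promoters there. The E-box letters CANNTG are in this stretch of 3 of the 7 genes and of 32.3% of promoters. Tags near transcript ends do not show where transcription began, so these letters are a description of the loci only.

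TTN (ENSG00000155657, GRCh38 chromosome 2, 178525989 to 178830802, minus strand) had the most counts of the 10 genes in every sgITPR3 library. It had 2253, 2325 and 1220 counts in sgITPR3 replicates 1 to 3, against 144, 434 and 14 in sgCtrl replicates 1 to 3. Every sgITPR3 library lay above every sgCtrl library, and sgCtrl replicate 2 was the highest and replicate 3 the lowest of the controls. The level was 84.8 ± 19.0 CPM in sgITPR3 and 10.02 ± 10.6 CPM in sgCtrl (SD, n = 3 each), a log2 fold change of 3.06. The highest sgCtrl library was 28.9 times the lowest, against 1.55 times within sgITPR3. Without sgCtrl replicate 2 the log2 fold change was 4.32, and without sgCtrl replicate 3 it was 2.52. In bulk RNA, more cells that carry a transcript and more transcript per cell cannot be told apart, here and for every gene below.

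The 3 adult fast-fibre myosin genes were also low in sgCtrl. Positions of these and the following genes are on GRCh38 chromosome 17, on the minus strand unless stated. MYH1 (ENSG00000109061, 10492307 to 10518543), whose product is the type IIx chain, had 95, 97 and 63 counts in sgITPR3 libraries and 11, 15 and 2 in sgCtrl libraries. MYH4 (ENSG00000264424, 10443290 to 10469559), for the type IIb chain, had 49, 60 and 39 counts in sgITPR3 and 4, 8 and 1 in sgCtrl. MYH2 (ENSG00000125414, 10521148 to 10549957), for the type IIa chain, had 38, 24 and 17 counts in sgITPR3 and 2, 14 and 3 in sgCtrl. The groups did not overlap for any of the 3 genes, but for MYH2 sgCtrl replicate 2 came close to sgITPR3 replicate 3. Mean levels were 3.76 ± 0.451 CPM for MYH1, 2.18 ± 0.217 CPM for MYH4 and 1.16 ± 0.417 CPM for MYH2 in sgITPR3, against 0.481 ± 0.333, 0.222 ± 0.172 and 0.321 ± 0.326 CPM in sgCtrl (SD, n = 3 each). The log2 fold changes were 2.94 for MYH1, 3.25 for MYH4 and 1.81 for MYH2. Leaving out sgCtrl replicate 2 gave 3.41, 3.97 and 3.06. Leaving out sgCtrl replicate 1 gave 1.41 for MYH2.

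MYH8, MYH3 and MYH13 are used in developing or specialised muscle, and they did not vary in the same way. MYH8 (ENSG00000133020, 10390322 to 10421950) had 75, 47 and 26 counts in sgITPR3 libraries and 1, 16 and 0 in sgCtrl libraries, so sgCtrl replicate 2 held 16 of the 17 sgCtrl counts. Its level was 2.16 ± 0.975 CPM in sgITPR3 and 0.283 ± 0.445 CPM in sgCtrl, a log2 fold change of 2.87. Leaving out sgCtrl replicate 2 would leave 1 sgCtrl count, so no fold is given for that case. MYH13 (ENSG00000006788, 10300865 to 10373130) had 277, 474 and 195 counts in sgITPR3 and 47, 42 and 56 in sgCtrl, which is 13.7 ± 4.82 CPM in sgITPR3 and 2.54 ± 0.451 CPM in sgCtrl and a log2 fold change of 2.44. Its sgCtrl libraries were within 1.43 times of each other, and sgCtrl replicate 2 was the lowest of them. MYH3 (ENSG00000109063, 10628526 to 10657309) had 55, 46 and 62 counts in sgITPR3 and 22, 43 and 24 in sgCtrl. In CPM the groups overlapped for MYH3, since sgCtrl replicate 2 (2.14 CPM) exceeded sgITPR3 replicate 2 (1.86 CPM), and its log2 fold change was 0.67. Summed over the 6 myosin genes, there were 589, 748 and 402 counts in sgITPR3 and 87, 138 and 86 in sgCtrl, or 25.5 ± 4.77 CPM in sgITPR3 and 5.38 ± 1.29 CPM in sgCtrl, a ratio of 4.74.

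**Figure D1:**
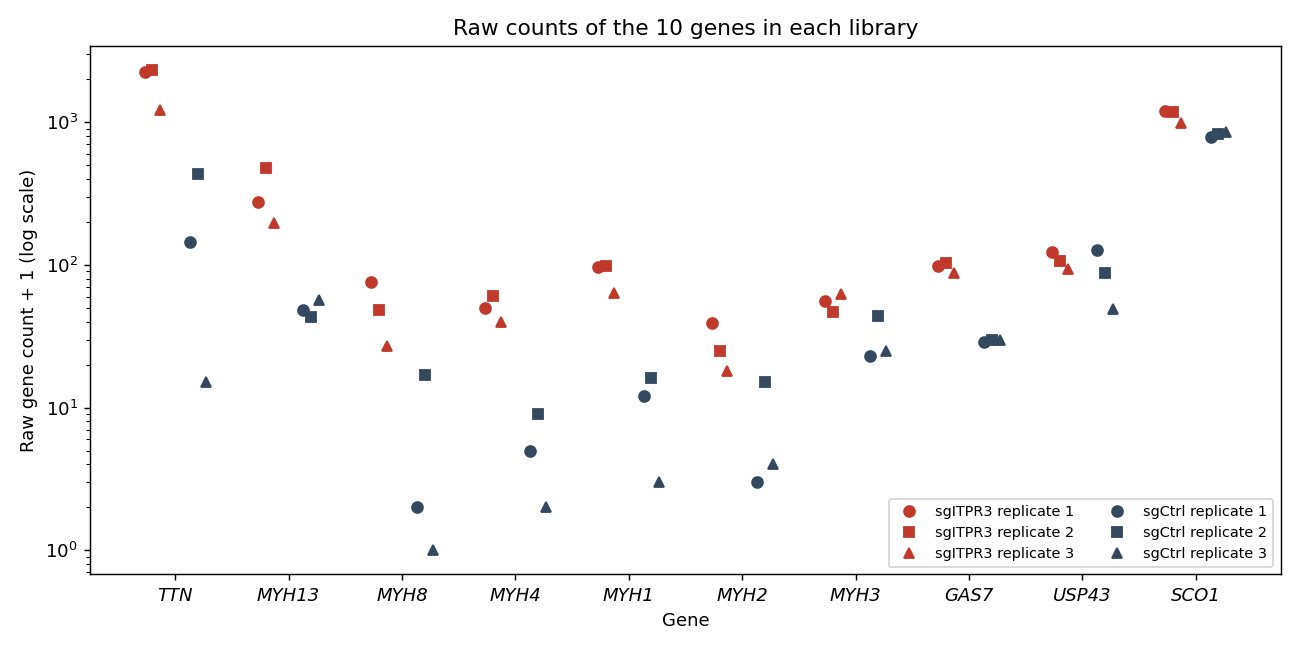
Raw counts plus 1 on a log scale for the 10 genes, with 1 point per library, sgITPR3 in red and sgCtrl in dark blue, and a marker shape per replicate number. TTN and the 6 myosin genes had every sgITPR3 point above every sgCtrl point in raw counts, for MYH3 by 46 against 43 counts. In CPM, which is not plotted here, the groups overlapped for MYH3. Counts in sgCtrl were as low as 0 for MYH8, and the USP43 points of the groups overlapped.

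The other 3 genes did not share one pattern. GAS7 (ENSG00000007237, 9910609 to 10198551) had 97, 102 and 87 counts in sgITPR3 and 28, 29 and 29 in sgCtrl. At 4.27 ± 0.191 CPM in sgITPR3 and 1.499 ± 0.0536 CPM in sgCtrl, its log2 fold change was 1.51, and its libraries agreed within 1.09 times inside each group. SCO1 (ENSG00000133028, 10672474 to 10698375) had 1189, 1174 and 994 counts in sgITPR3 and 786, 826 and 860 in sgCtrl. Its level was 50.03 ± 2.19 CPM in sgITPR3 and 43.1 ± 2.52 CPM in sgCtrl, a log2 fold change of 0.22, where the median over the 1005 tested genes of chromosome 17 was 0.21. USP43 (ENSG00000154914, 9644698 to 9729691, plus strand) had 123, 105 and 92 counts in sgITPR3 and 127, 87 and 48 in sgCtrl. USP43 went against the shared rise for which the genes were picked: the groups overlapped, at 4.77 ± 0.532 CPM in sgITPR3 and 4.57 ± 2.14 CPM in sgCtrl, and its log2 fold change was 0.06. That of USP43 was 0.46 without sgCtrl replicate 1 and -0.23 without sgCtrl replicate 3.

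Of the 10 genes, 8 had every sgITPR3 library above every sgCtrl library in CPM, which held for 19.6% of the 15804 tested genes, while 19.7% had every sgITPR3 library below every sgCtrl library. By edgeR, 23.5% of tested genes passed in either direction. A log2 fold change above 1 was seen in 7 of the 10 and in 5.57% of tested genes. Because the genes were chosen on this difference, these shares describe the choice and nothing further is read from them. GAS7 and MYH2 were the lowest inside that limit of 1, with log2 fold changes of 1.51 and 1.81, and MYH3 was the next below it.

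The control libraries differed from each other in some of the genes and not in others. In sgCtrl replicate 2 the level was at least 2 times the mean of sgCtrl replicates 1 and 3 for 5 of the 10 genes: 5.08 times for TTN, 5.20 times for MYH2, 2.96 times for MYH4, 2.14 times for MYH1 and 29.6 times for MYH8, the last from 16 counts against 1 and 0. Over all tested genes, 3.55% reached 2 times, but nothing is read from that share, since 4 of these 5 genes (MYH1, MYH2, MYH4 and MYH8) passed the low-count filter through sgITPR3 and their low sgCtrl counts were part of the choice. The same ratio was 1.73 for MYH3, 0.757 for MYH13, 0.944 for GAS7, 0.921 for USP43 and 0.931 for SCO1. Each group's mean was then subtracted from the log2 levels, and TTN was correlated with the other listed genes over the 6 libraries. For TTN, r was 0.99 with MYH4, 0.98 with MYH1, 0.84 with MYH8 and 0.61 with MYH2. It was also 0.68 with USP43 and 0.41 with MYH3, which did not reach 2 times in sgCtrl replicate 2. With MYH13, GAS7 and SCO1, r was -0.36, -0.68 and -0.82. These r values describe 6 libraries, rest on few counts and share the library scaling.

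Liver transcripts varied along with the same genes. ALB, the serum albumin gene made by hepatocytes, was at 231.6, 152.6 and 111.5 CPM in sgITPR3 replicates 1 to 3 and at 33.8, 169.7 and 21.6 CPM in sgCtrl replicates 1 to 3, so the groups overlapped and ALB did not pass (edgeR adjusted p = 0.123). Its level in sgCtrl replicate 2 was 6.13 times the mean of the other sgCtrl libraries. Of the 15 hepatocyte markers, 11 could be tested. In 3.55% of all tested genes, sgCtrl replicate 2 was at least 2 times the mean of the other sgCtrl libraries. This held for 10 of these 11 markers. SERPINA1, a secreted protease inhibitor gene, was the exception, at 1.09 times. FGG, TTR, FGA, TF and CYP3A4 had 1, 4, 1, 1 and 4 counts in sgCtrl replicate 3 and passed the low-count filter through sgITPR3, so the share is not read for them. ALB, APOB, FGB, APOA1 and ASGR1 had at least 10 counts in every library. Their ratios were 6.13, 5.28, 4.55, 3.09 and 2.19. The summed level of the markers was 173 to 331 CPM in sgITPR3 and 71.0 to 276 CPM in sgCtrl. APOA2 had counts in sgCtrl replicate 2 alone among the libraries. In the fit, 1 hepatocyte marker rose, 1 fell and 9 did not pass, shares close to the 11.6% of all tested genes that rose and the 11.9% that fell. The median log2 fold change of the 11 markers was nonetheless 1.08, against 0.00086 for all tested genes. SERPINA1 was the only tested marker with a negative log2 fold change. The sgCtrl libraries were spread widely for most of these markers. APOA1 rose (log2 fold change 1.06 ± 0.352 as SE, with edgeR adjusted p = 0.0414). SERPINA1 fell (log2 fold change -1.64 ± 0.113 as SE, with edgeR adjusted p = 1.51e-07). The APOA1 call ended without sgCtrl replicate 1 or 3 and without sgITPR3 replicate 1 or 2, with log2 fold changes of 0.71 to 1.01 and edgeR adjusted p of 0.110 to 0.15. With the ALB covariate it was 0.20 (edgeR adjusted p = 0.601), and the DESeq2 adjusted p was 0.225. With the ALB level as a covariate, the log2 fold change was 2.05 for TTN, 2.32 for MYH1, 2.64 for MYH4, 1.57 for MYH8 and 0.80 for MYH2. With the same covariate it was 2.64 for MYH13 and 1.57 for GAS7, against 2.44 and 1.51 without it. For MYH3, USP43 and SCO1 it was 0.38, -0.05 and 0.28, against 0.67, 0.06 and 0.22. The part of liver RNA in these differences was not tested.

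**Figure D2:**
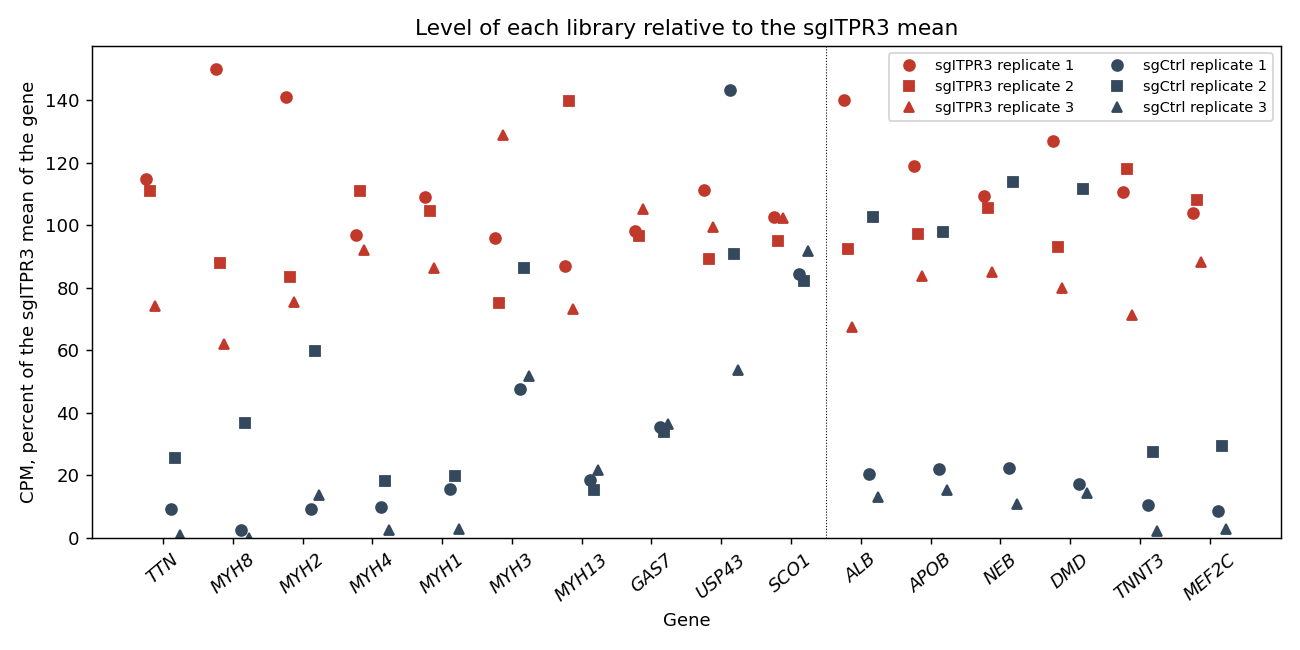
CPM of each library as a percentage of the gene's mean over the sgITPR3 libraries, with sgITPR3 in red and sgCtrl in dark blue; the dotted line separates the 10 listed genes from liver and muscle genes. For TTN, MYH1, MYH2, MYH4 and MYH8, as for ALB, APOB, NEB and DMD, sgCtrl replicate 2 was the highest sgCtrl library, whereas for MYH13 and GAS7 the sgCtrl libraries lay close together.

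On chromosome 17 the 9 listed genes span 1.05 Mb. Wholly between 1 Mb before the first and 1 Mb after the last of them lie 55 other annotated genes, of which 21 had any count and 6 could be tested. Of these 6, PIK3R6 and STX8 rose, 1 antisense gene fell and 3 did not pass, where 11.6% of all tested genes rose and 11.9% fell. Their median log2 fold change was 0.37, against 0.21 for chromosome 17 and 0.00086 for all tested genes. Over the 42 tested genes of a window reaching 2 Mb on each side, the median was -0.020. STX8, which encodes a SNARE protein of endosomes and lies near USP43, was at 40.3, 40.7 and 42.2 CPM in sgITPR3 and 32.3, 27.3 and 31.9 CPM in sgCtrl (a log2 fold change of 0.43, SE 0.086, edgeR adjusted p = 0.00235). PIK3R6, a regulatory subunit gene of phosphoinositide 3-kinase gamma, had 14, 22 and 19 counts in sgITPR3 and 1, 6 and 2 in sgCtrl (log2 fold change 2.35 ± 0.587 as SE, with edgeR adjusted p = 0.00960). PIK3R6 reached the low-count filter through sgITPR3, so its entry already implies a difference. The PIK3R6 call ended without sgCtrl replicate 1 (log2 fold change 1.97, edgeR adjusted p = 0.0515) and with the ALB covariate (1.94, edgeR adjusted p = 0.0917). The gene that fell, ENSG00000262966, is antisense to NTN1 and had 9, 1 and 3 counts in sgITPR3 and 18, 19 and 15 in sgCtrl (log2 fold change -2.19 ± 0.583 as SE, with edgeR adjusted p = 0.0141). It reached the low-count filter through sgCtrl, with the same limit. Without sgITPR3 replicate 2 or 3 its call ended (edgeR adjusted p = 0.0790 and 0.0601). No source used here says whether counting used strand, so reads of overlapping genes cannot be told apart.

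The genes between the listed ones were scarcely counted. MYHAS, the long antisense transcript that crosses MYH8, MYH4, MYH1 and MYH2, had 6, 5 and 4 counts in sgITPR3 and 0, 2 and 2 in sgCtrl. DHRS7C, between USP43 and GAS7 and known from muscle sarcoplasmic reticulum, had 3, 5 and 3 counts in sgITPR3 and 0 in every sgCtrl library. A count of 0 in each library allows up to 0.161 CPM for a floor of 3 counts per library. ADPRM, whose start overlaps that of SCO1 on the opposite strand, was at 3.54, 3.32 and 4.18 CPM in sgITPR3 and 1.56, 2.34 and 3.20 CPM in sgCtrl, and did not pass (log2 fold change 0.63 ± 0.260 as SE, with edgeR adjusted p = 0.0946). Outside that window, MYH10, which encodes the nonmuscle myosin IIB chain, was at 59.5 ± 0.721 CPM in sgITPR3 and 30.9 ± 1.91 CPM in sgCtrl (log2 fold change 0.94 ± 0.077 as SE, with edgeR adjusted p = 7.87e-07). DNAH9, an axonemal dynein gene chosen after its values were seen, starts inside the window and ends outside it, so it is not among the 6 genes. It rose and had 22, 16 and 17 counts in sgITPR3 and 2, 4 and 5 in sgCtrl (log2 fold change 2.07 ± 0.517 as SE, with edgeR adjusted p = 0.00984). DNAH9 reached the low-count filter through sgITPR3, so its entry already implies a difference.

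**Figure D3:**
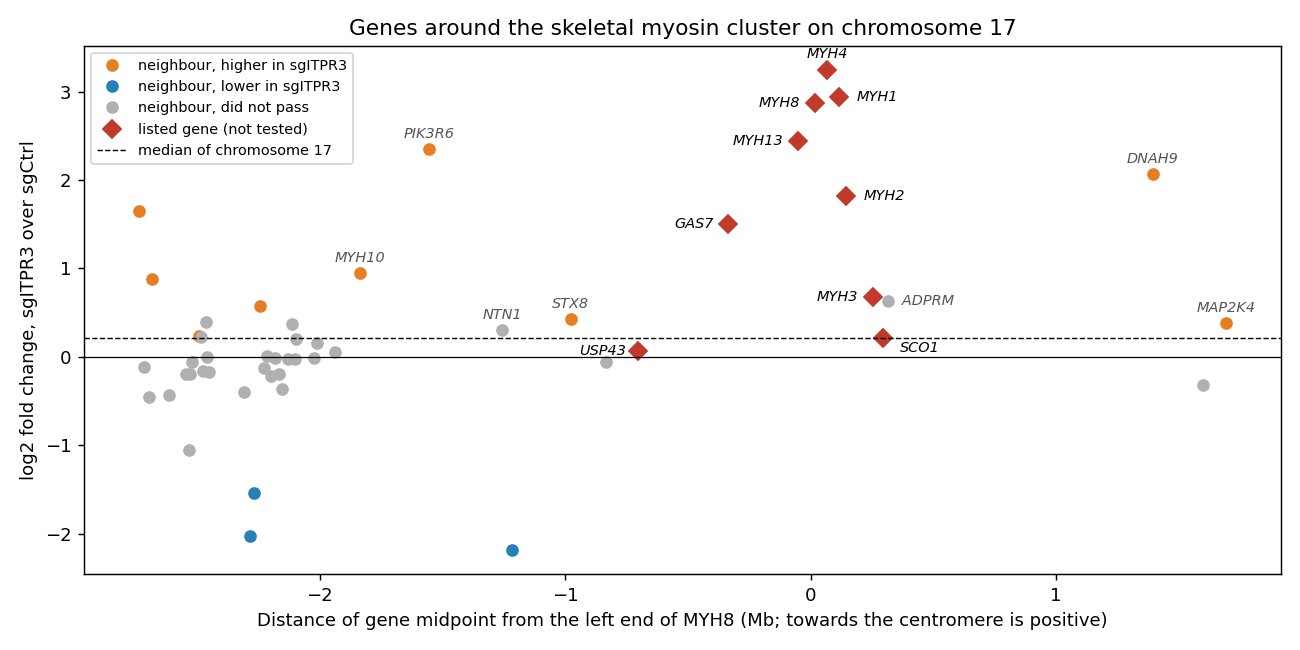
Log2 fold change of sgITPR3 over sgCtrl against the distance of each gene's midpoint from one end of MYH8 (Mb), for the 9 listed chromosome 17 genes (diamonds) and all tested genes up to 2 Mb beyond them (circles, coloured by call). MYH1, MYH4, MYH8 and MYH13 lie above 2.4, whereas SCO1 lies near the dashed chromosome median of 0.21 and USP43 below it.

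Chromosome 17 as a whole was shifted upward in sgITPR3, with 27.7% of its tested genes higher and 4.08% lower. In windows of 5 Mb without the listed genes, the medians lay between 0.16 and 0.35, except from 5 to 10 Mb, where the median of 92 genes was -0.0024. The window from 10 to 15 Mb, which holds the myosin genes, had a median of 0.31 over its other 12 tested genes, 3 of which rose. Scaling the libraries on genes outside chromosome 17 gave log2 fold changes of 3.08 for TTN, 3.26 for MYH4 and 0.23 for SCO1.

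**Figure D4:**
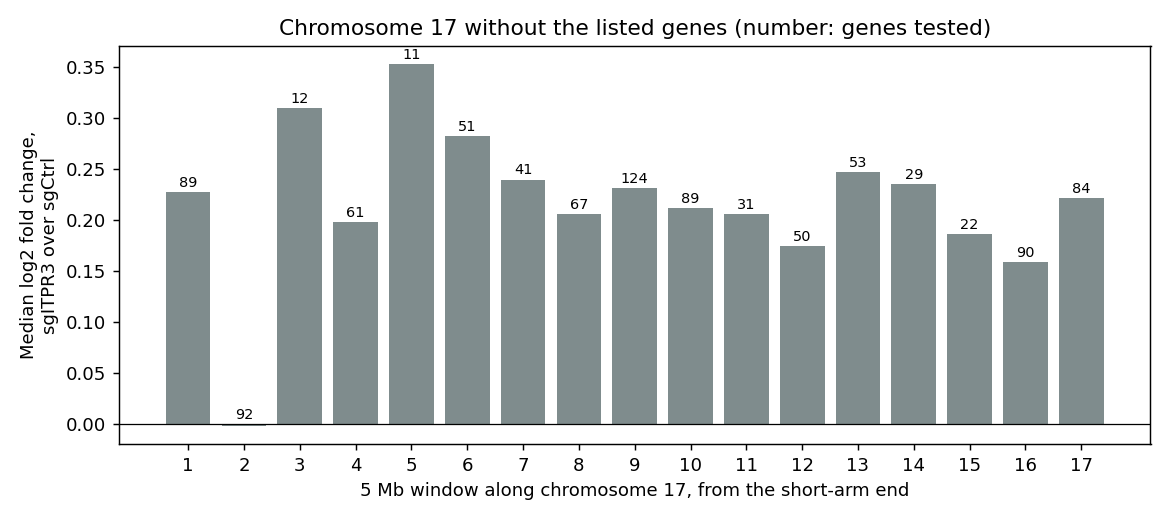
Median log2 fold change of sgITPR3 over sgCtrl in successive 5 Mb windows of chromosome 17, listed genes left out, with the number of tested genes above each bar. The second window had a median of -0.0024, and the third, which surrounds the myosin cluster, had a median of 0.31 over 12 genes.

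Most neighbours of TTN on chromosome 2 did not pass the test. Wholly within 1 Mb of it, 18 other genes could be tested, 2 rose, 0 fell and 16 did not pass by edgeR; no gene fell at an unadjusted p under 0.05, by DESeq2 or by limma-voom (0 each). The 2 rises among 18 genes are a share close to the 11.6% of all tested genes that rose. The median log2 fold change of the 18 genes was 0.14, against 0.064 for the chromosome. OSBPL6, an oxysterol-binding protein gene, was at 52.3, 48.6 and 44.5 CPM in sgITPR3 and 31.2, 30.2 and 30.8 CPM in sgCtrl (log2 fold change 0.66 ± 0.083 as SE, with edgeR adjusted p = 5.19e-05). SESTD1 had a log2 fold change of 0.38 (SE 0.132, edgeR adjusted p = 0.0489), but its call ended in 10 of 14 other settings, among them each of the 6 that left out a library except sgITPR3 replicate 3, where edgeR adjusted p lay between 0.0677 and 0.164. TTN-AS1, which overlaps TTN on the opposite strand, was at 9.76, 10.52 and 12.1 CPM in sgITPR3 and 9.63, 9.69 and 8.22 CPM in sgCtrl, and did not pass (log2 fold change 0.23 ± 0.134 as SE, with edgeR adjusted p = 0.239). PLEKHA3, beyond the 3′ end of TTN, did not pass either (log2 fold change -0.06, edgeR adjusted p = 0.678). CCDC141, whose 3′ end overlaps the start of TTN, had 4, 14 and 15 counts in sgITPR3 and 1, 42 and 7 in sgCtrl, and was thus highest in sgCtrl replicate 2 (log2 fold change -0.77, edgeR adjusted p = 0.527).

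Other genes of the sarcomere included both rises and falls. Of 48 listed, 47 were in the table, 44 had any count and 18 could be tested. Of these, 6 rose, 3 fell and 9 did not pass, with a median log2 fold change of 0.56, beside 11.6% of all tested genes that rose, 11.9% that fell and a median of 0.00086. TNNT3, the fast skeletal troponin T gene, had 65, 74 and 35 counts in sgITPR3 and 5, 14 and 1 in sgCtrl (log2 fold change 2.86 ± 0.496 as SE, with edgeR adjusted p = 8.22e-04). TNNT3 reached the low-count filter through sgITPR3, so its entry already implies a difference. TNNT1, the slow troponin T gene, was at 28.6 ± 2.86 CPM in sgITPR3 and 13.6 ± 3.41 CPM in sgCtrl (log2 fold change 1.07 ± 0.145 as SE, with edgeR adjusted p = 1.07e-04). TPM2, encoding beta-tropomyosin, rose by 0.77 on the log2 scale, TMOD1, which caps thin filaments, by 0.57, and the cardiac troponin I gene TNNI3 by 0.56, a call that ended with the ALB covariate (edgeR adjusted p = 0.0988). MYBPH, a thick-filament protein gene, fell to 0.910 ± 0.376 CPM in sgITPR3, against 6.05 ± 1.04 CPM in sgCtrl (log2 fold change -2.70 ± 0.278 as SE, with edgeR adjusted p = 8.60e-06). NEB, which encodes the thin-filament giant nebulin, did not pass: it was at 19.2, 18.5 and 14.9 CPM in sgITPR3 and 3.93, 19.99 and 1.87 CPM in sgCtrl (log2 fold change 1.02 ± 0.494 as SE, with edgeR adjusted p = 0.156). In sgCtrl replicate 2, NEB was 6.90 times the mean of the other sgCtrl libraries, above the ratio for TTN, and TNNT3 was 4.32 times.

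Genes of muscle excitation, calcium release and energy supply included 14 that could be tested of 30, with 8 higher, 1 lower and 5 that did not pass (median log2 fold change 0.89), again beside 11.6% higher and 11.9% lower over all tested genes. XIRP2, SMPX and CHRNA1 rose but had fewer than 10 counts in every sgCtrl library. They reached the low-count filter through sgITPR3, so their entry already implies a difference, and nothing further is read from the share that rose. RYR1, the calcium release channel of the sarcoplasmic reticulum, was at 3.24 ± 0.182 CPM in sgITPR3 and 1.15 ± 0.222 CPM in sgCtrl (log2 fold change 1.49 ± 0.262 as SE, with edgeR adjusted p = 8.86e-04). CKM, the muscle creatine kinase gene, was at 4.92 ± 0.820 CPM in sgITPR3 and 1.96 ± 0.258 CPM in sgCtrl (log2 fold change 1.32 ± 0.223 as SE, with edgeR adjusted p = 6.52e-04). XIRP2, an actin-binding protein gene, had 40, 40 and 36 counts in sgITPR3 and 6, 5 and 1 in sgCtrl (log2 fold change 3.02 ± 0.470 as SE, with edgeR adjusted p = 3.48e-04). RYR1, CKM and XIRP2 had ratios of 1.06, 1.10 and 1.32 for sgCtrl replicate 2 over the other sgCtrl libraries. CHRND, an acetylcholine receptor subunit gene, rose by 0.73, SMPX, a gene of striated muscle, by 2.42 and DES, encoding the filament protein desmin, by 1.21 on the log2 scale. The gene of this list that fell was CACNA1S, at 2.01 ± 0.583 CPM in sgITPR3 and 3.79 ± 0.356 CPM in sgCtrl (log2 fold change -0.90 ± 0.251 as SE, with edgeR adjusted p = 0.0179). With the ALB covariate the calls of CHRND and DES ended (edgeR adjusted p = 0.0711 and 0.146). DMD, the dystrophin gene, did not pass, and in sgCtrl replicate 2 it was at 7.08 times the mean of the other sgCtrl libraries.

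Among genes that define skeletal muscle cells, several were at or near 0 while others were counted. MYOD1 and MYOG, the factors that start and complete muscle differentiation, had 0 counts in all 6 libraries. ACTA1, the main actin of skeletal muscle, had 5, 14 and 0 counts in sgITPR3 and 1, 5 and 3 in sgCtrl, and MB, the myoglobin gene, had at most 5 counts in any library. Of the 9 defining skeletal muscle markers in the table, 5 could be tested and CKM, DES and TNNT3 rose, where 11.6% of all tested genes rose. Of these, TNNT3 reached the low-count filter through sgITPR3, so nothing further is read from the share. Among 18 myogenic regulators, 7 could be tested and 1 rose, which is close to the 11.6% of all tested genes. MEF2C, a transcription factor of muscle, neurons and other lineages, had 45, 50 and 32 counts in sgITPR3 and 3, 11 and 1 in sgCtrl (log2 fold change 2.83 ± 0.508 as SE, with edgeR adjusted p = 0.00108). MEF2C reached the low-count filter through sgITPR3, so its entry already implies a difference. Its relatives MEF2A and MEF2D did not pass, with log2 fold changes of 0.05 and -0.13.

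**Figure D5:**
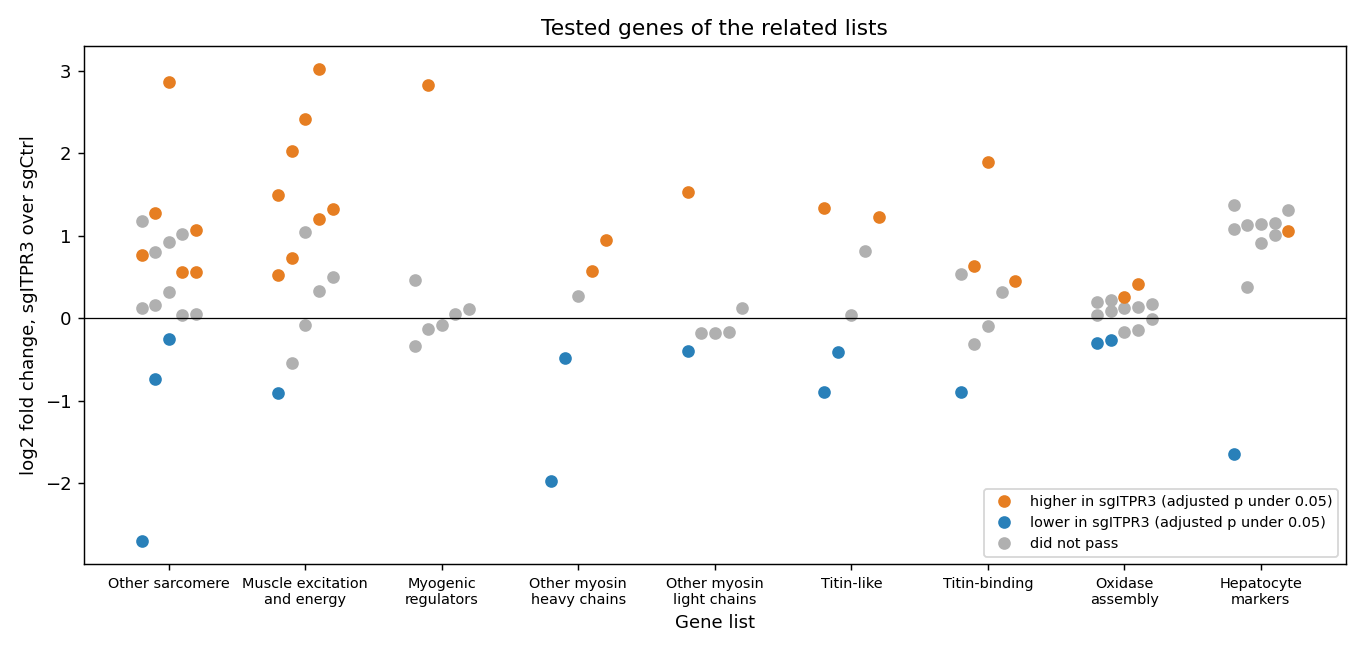
Log2 fold change of sgITPR3 over sgCtrl for every tested gene of 9 related lists, coloured by whether the gene rose, fell or did not pass by edgeR. Sarcomere and muscle excitation genes included rises of up to 3.02 and falls down to -2.70. Of the 11 hepatocyte markers, 9 did not pass, with a median of 1.08 over the 11.

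Myosins outside the skeletal cluster and genes related to titin also moved in both directions, in short lists to be read beside the 11.6% of all tested genes that rose and the 11.9% that fell. Of 5 tested heavy chain genes, MYH10 and MYH7B rose and MYH9 and MYH15 fell, and MYH14 did not pass. MYH9, the main nonmuscle myosin II chain, was at 342 ± 28.2 CPM in sgITPR3 and 479 ± 29.1 CPM in sgCtrl (log2 fold change -0.48 ± 0.075 as SE, with edgeR adjusted p = 3.33e-04). MYH7B, a sarcomeric heavy chain gene of chromosome 20, was at 204 ± 3.70 CPM in sgITPR3 and 137 ± 16.7 CPM in sgCtrl (log2 fold change 0.58). MYH15 fell from few counts (log2 fold change -1.97), and its call ended with the ALB covariate (edgeR adjusted p = 0.0992). MYH15 reached the low-count filter through sgCtrl. The cardiac chain gene MYH6 had 13, 10 and 3 counts in sgITPR3 and 1, 1 and 0 in sgCtrl, and MYH7 had 2, 3 and 12 in sgITPR3 and 5, 3 and 0 in sgCtrl. Of 6 tested light chain genes outside skeletal muscle, MYL9 rose (log2 fold change 1.53), MYL6 fell (-0.39) and 4 did not pass. Of 6 titin-like genes, all tested, MYLK and SPEG rose, by 1.23 and 1.33 on the log2 scale, TRIO and KALRN fell (log2 fold changes -0.41 and -0.90), and 2 did not pass. The calls of SPEG and TRIO ended with the ALB covariate (edgeR adjusted p = 0.0693 and 0.0743). Of 8 tested titin-binding and turnover genes, ANKRD1, NBR1 and CRYAB rose, FHL2 fell and 4 did not pass. ANKRD1, encoding a stretch-responsive repeat protein that binds the titin spring, was at 259 ± 33.2 CPM in sgITPR3 and 167 ± 16.2 CPM in sgCtrl. The CRYAB call ended without sgCtrl replicate 3 and without sgITPR3 replicate 1 or 3 (edgeR adjusted p = 0.0703, 0.0764 and 0.05998). CRYAB also reached the low-count filter through sgITPR3. Among 14 tested partners of SCO1 in cytochrome c oxidase assembly, COX17 and COX11 rose, COA6 and COX15 fell and 10 did not pass, with a median log2 fold change of 0.11. These 4 calls of 14 are close to the 23.5% called over all tested genes. None of these 4 calls held throughout. Over 14 other settings, the call ended in 2 for COX17, 4 for COX11, 4 for COA6 and 10 for COX15. Only the left-out libraries among those settings are given next. COX17 ended without sgITPR3 replicate 2 (edgeR adjusted p = 0.0653), COX11 without sgCtrl replicate 1 or sgITPR3 replicate 1 or 2 (0.0656 to 0.105), COA6 without sgCtrl replicate 3 or sgITPR3 replicate 1 or 2 (0.0709 to 0.105), and COX15 without any single library but sgCtrl replicate 2 (0.0624 to 0.146).

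Markers of other cells that a liver digest can hold were read as human genes. The host liver was mouse, and the handling of mouse reads is not stated. The levels therefore do not measure how many such cells were present, and their source was not tested. Smooth muscle and stellate markers summed to 38.3 to 43.7 CPM in sgITPR3 and 42.8 to 51.5 CPM in sgCtrl. SMTN and ACTA2 were the highest in this sum, with means of 17.5 and 12.9 CPM in sgITPR3 and 28.3 and 12.4 CPM in sgCtrl. Of 7 markers tested, 2 rose (DES and LMOD1), SMTN fell and 4 did not pass. These calls and those below stand beside 11.6% of all tested genes that rose and 11.9% that fell. Fibroblast markers summed to 8.51 to 10.7 CPM in sgITPR3 and 5.87 to 6.62 CPM in sgCtrl, with COL1A1, the only one tested, higher (log2 fold change 0.48). The calls of LMOD1 and COL1A1 each ended without single libraries: log2 fold changes were 0.87 to 1.19 for LMOD1 without sgCtrl replicate 1 or 3 or sgITPR3 replicate 1 or 2, and 0.41 to 0.502 for COL1A1 without any sgCtrl replicate or sgITPR3 replicate 1 or 2. Counting every other setting run, the LMOD1 call ended in 7 of 13 and the COL1A1 call in 6 of 14. The lowest log2 fold change of LMOD1 over those settings was 0.74. Endothelial markers summed to 0.526 to 0.979 CPM in sgITPR3 and 0.398 to 1.02 CPM in sgCtrl, and none of the 7 could be tested. Leukocyte markers summed to 11.4 to 17.2 CPM in sgITPR3 and 9.503 to 12.3 CPM in sgCtrl, mostly from ITGAM, and the 2 that could be tested did not pass. ITGAM had a log2 fold change of 0.41 (edgeR adjusted p = 0.0827), and it passed without the low-count filter (0.41, edgeR adjusted p = 0.0352) and without sgITPR3 replicate 3 (0.53, edgeR adjusted p = 0.04895).

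Likeness over the 6 libraries was ranked by Pearson's r of log2 CPM among the 10631 genes whose mean reached 5 CPM. The genes closest to TTN were TNFSF12 (r = 0.99), IL11RA (r = 0.989), TMEM45A (r = 0.986), BRAF (r = 0.984) and ENSG00000279281 (r = 0.983), whose log2 fold changes of 0.25 to 0.62 were far smaller than that of TTN. Closest to the summed myosin counts were GPR155, ZNF608, SNHG16, PPARA and NEURL1B, with r from 0.997 to 0.999 and log2 fold changes of 0.16 to 1.36. By deviations from the group means, TRAPPC12, FTX, MAD2L2, TMEM45A and FAM193B were closest to TTN (r = 0.991 to 0.995), and H2AC25, PAPOLG, SEL1L, DIS3L and CALML3 to the summed myosins (r = 0.9896 to 0.995). With a prior count of 0.5 in place of 2, FABP1, a fatty acid-binding protein gene of liver and intestine with a log2 fold change of 2.73, took the place of BRAF. With so many candidates for 6 points, r values of this size describe the ranking only.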

How the data were processed

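The authors deposited raw counts per gene for 6 libraries. Per the labels' protocols, libraries were made with the Lexogen 3' FWD kit. Per the submitters' processing notes, STAR 2.6.0a, featureCounts 1.6.3, DESeq2 and the build GRCh38 were used; those notes do not give the annotation release, the strand setting or the handling of mouse and multiply aligned reads. Of 58884 identifiers, 58876 received a symbol and 58611 a position (GENCODE 29).

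Counts were analysed with R 4.3.3 and edgeR 4.0.16: filterByExpr (minimum count 10) kept 15804 genes, TMM gave factors of 0.961 to 1.03, and the quasi-likelihood F test compared sgITPR3 with sgCtrl without covariates, with Benjamini-Hochberg adjustment over all tested genes and a threshold of 0.05. "Rose" and "fell" mean passing that threshold. Among the genes named as risen, TNNT3, XIRP2, SMPX, CHRNA1, MEF2C, CRYAB, LMOD1, PIK3R6 and DNAH9 had fewer than 10 counts in at least 1 sgCtrl library. They reached the filter through sgITPR3, and their adjusted p is to be read with that limit. The SE is the absolute log2 fold change over the square root of F. Libraries of a group differed beyond sampling noise (chi-square per degree of freedom 6.08 to 11.5). The procedure was checked on simulated data. A count of 0 allows up to 3 counts, a limit that covers counting error only.

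The 10 genes, the related lists and the tests were chosen with earlier results of these data known. Named genes are the 10, all called neighbours lying wholly within 1 Mb and those next to a listed gene, up to 6 called members per list by smallest p (up to 2 highest where none was called), and the 5 most alike by r. Genes named outside this rule, such as NEB, DMD, MYHAS, DHRS7C, MYH6, MYH7, MEF2A, MEF2D, FABP1, DNAH9, CACNA1S, ACTA2, CHRNA1 and the hepatocyte markers other than ALB, APOA1 and SERPINA1, were chosen after their values were seen. The list member MYLPF is not analysed here. The results were recomputed with the replicate number as a block, with RLE scaling, without a low-count filter, with at least 1 CPM required in 3 libraries, with DESeq2 1.42.0, limma-voom (limma 3.58.1) or ALB as a covariate, with scaling outside chromosome 17, a 2 Mb window or a prior count of 0.5 in place of 2, and without each library.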

Additional observations from a re-analysis of the deposited data

How the results depend on the processing

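Against 3717 genes called over all 15804, the count was 1982 with ALB as a covariate, 3877 with the replicate block and 2331 to 4261 when a single library was left out. Near the myosin cluster, 2 genes rose and 1 fell; 1 rose and 0 fell with the filter of 1 CPM, 1 rose with the ALB covariate, 9 rose and 3 fell in a window of 2 Mb, and without single libraries 1 to 3 rose and 0 to 1 fell. Near TTN, 2 rose; 1 rose with no filter, the replicate block, DESeq2, limma-voom or the ALB covariate, and 1 to 2 rose without single libraries. The median log2 fold change of 0.37 over 6 genes near the myosin cluster was -0.020 over the 42 tested genes of the 2 Mb window. In the narrower window the median was 0.62 with no filter, 0.47 with ALB and 0.32 to 0.46 without single libraries. That of chromosome 17 (0.21) was 0.24 with no filter, 0.19 with ALB, 0.23 with scaling outside the chromosome and 0.19 to 0.22 without single libraries. The cause of these shifts was not tested. Among sarcomere genes, 4 to 9 rose and 2 to 3 fell over the alternatives run, against 6 and 3; the counts of the other lists were not recomputed. Same-numbered libraries of the groups had correlated deviations of -0.0503, 0.01301 and 0.0977, and sgITPR3 replicate 1 was closest to sgCtrl replicate 2, so the numbers were not taken as pairs. Low counts of the myosin genes in sgCtrl limit the precision of their folds.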
